A study of Cicer arietinum with 8 samples.

Results

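Among the 768 features of a spotted cDNA array, 22 were described as redox enzymes or as proteins of dehydration stress. They were chosen by keywords in the description given in the study's feature list (superoxide, catalase, peroxidase, peroxiredoxin, glutathione, thioredoxin, ascorbate, metallothionein, dehydration, dehydrin, desiccation, drought and late embryogenesis), with no use of measured values. Of these 22 probes, 10 were chickpea cDNAs and 12 were cDNAs of grasspea (Lathyrus sativus), a related pulse, and all were hybridised with chickpea RNA. A cDNA probe can bind transcripts of related genes, and members of a gene family cannot be told apart on such an array.

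The plants were chickpea (Cicer arietinum) of the cold tolerant genotypes Sonali (Tolerant1) and ILC 01276 (Tolerant2) and of the cold susceptible genotypes Amethyst (Susceptible1) and DOOEN (Susceptible2), grown in potting mix in a glasshouse. Cold treatment began 2 weeks after flowering, with nights at 5 °C and days at 15 to 25 °C. Tissue was taken after 7 such nights from leaves or from a mixture of flowers, buds and early pods, called flowers here. Control plants stayed at 15 to 25 °C. Each RNA was a pool of 5 plants, and each hybridisation compared cold with control RNA of 1 genotype and tissue in 2 dyes. The value of a probe was the log2 ratio of cold over control, so that 1 is a 2-fold increase and -1 a 2-fold decrease. The study's methods describe the treatments as repeated in biological replicates, and the sample labels say nothing more of their origin. The p-values measure the spread between these hybridisations.

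Cold exposes photosynthetic tissue to an excess of excited electrons, and superoxide and hydrogen peroxide are formed. Superoxide dismutase turns superoxide into hydrogen peroxide, which catalase, ascorbate peroxidase, glutathione peroxidase and other peroxidases then remove. Thioredoxins keep protein thiols reduced with electrons that in the chloroplast come from ferredoxin through ferredoxin-thioredoxin reductase. Metallothioneins are small cysteine-rich proteins that bind metals. Dehydrins are hydrophilic proteins that accumulate in many plants under cold or drought and are known to protect membranes and proteins when cells lose water.

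The 22 distinct hybridisations gave 3 replicates in 6 groups and 2 in Tolerant2 flowers and Susceptible2 flowers. Of the spots, 17.9% to 75.7% per hybridisation were unflagged in both channels. The lowest shares belonged to the first replicate in leaves of Tolerant1 (17.9%) and Susceptible1 (30.7%), and of the 22 probes only superoxide dismutase had a value on the former. All 22 probes passed the filter on dim signals, which asked for 2 times the local background in 1 channel of 1 hybridisation, but unflagged values were unevenly spread. The superoxide dismutase probe had a ratio on all 22 hybridisations, whereas glutathione peroxidase DY396331 and the dehydration stress-induced protein DY396321 had 2 each. A probe was tested in a mean over genotypes where each group involved had at least 2 replicates, which 12 of the 22 reached in leaves, 11 in flowers and 10 in both tissues. As a check of the tissue labels, 7 of the 9 probes for chlorophyll a/b binding proteins could be tested between unstressed leaves and flowers. Of the 7, 5 were higher in leaves, with a median difference of 0.37 on the log2 scale, but 0 of them reached a 2-fold difference at an adjusted p below 0.05 (limma). DY475454 was higher at an adjusted p of 0.00565 but under 2-fold (0.76), and DY475554 was called lower (-1.49, adjusted p = 0.00186), so that these markers did not all point the same way.

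**Figure D1:**
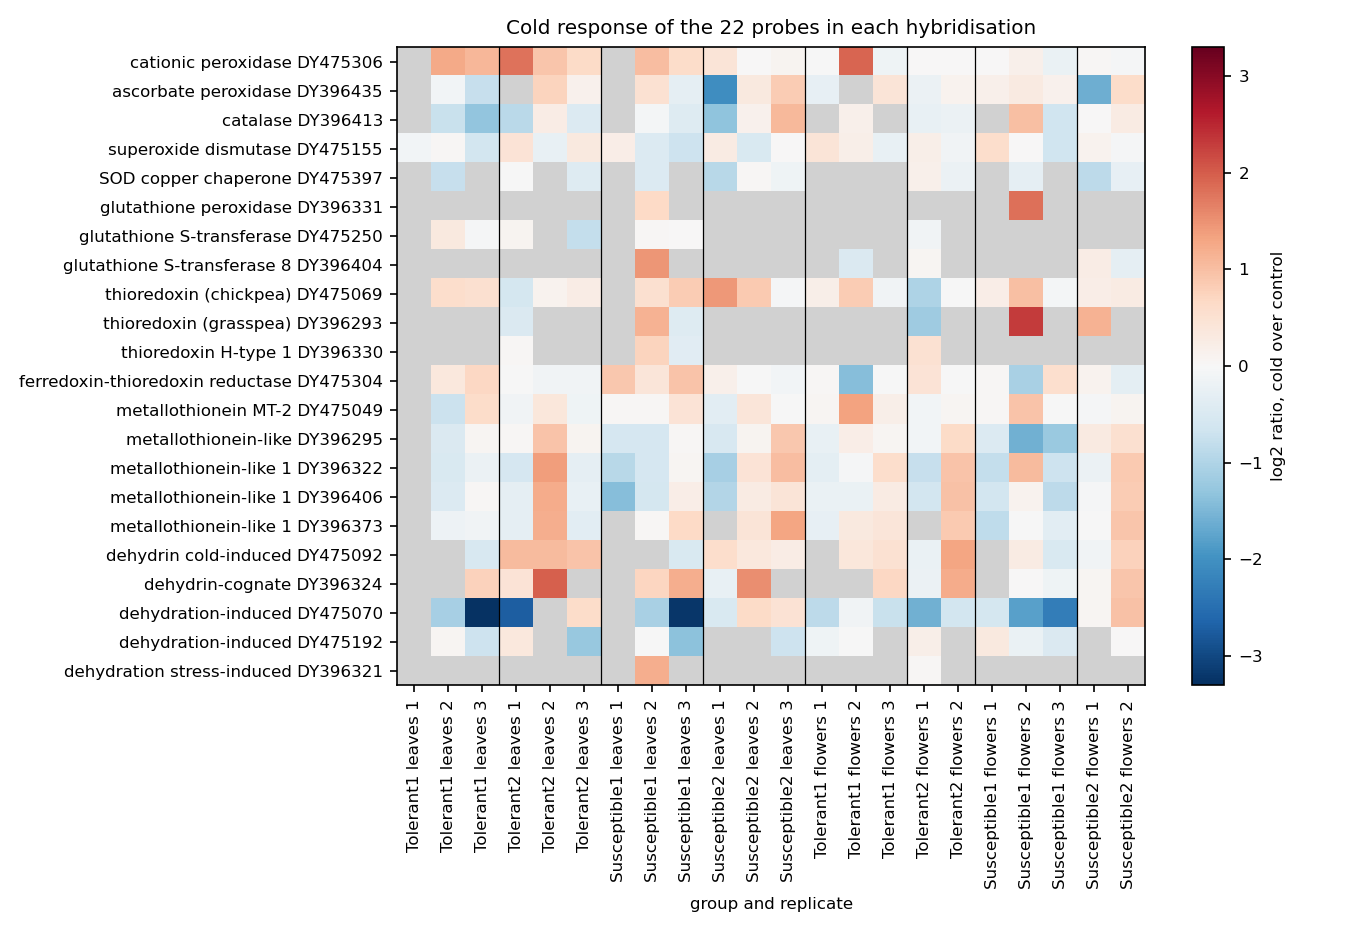
Log2 ratio of cold over control (colour) of the 22 probes (rows) in the 22 hybridisations (columns, by group and replicate number). Grey cells had no unflagged spot. The top row, cationic peroxidase, is above 0 in each of its 10 leaf cells, and the row of dehydration-induced protein DY475070 holds the lowest ratio, -3.25 in replicate 3 of Tolerant1 leaves.

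In the mean over the leaves of the 4 genotypes, transcripts bound by 2 of the 12 tested probes changed in cold: a cationic peroxidase (DY475306) rose to 0.81 on the log2 scale and a dehydration-induced protein (DY475070) fell by 1.29. Over the whole array 9.66% of the 445 tested probes were called in this comparison, 6.29% as higher and 3.37% as lower, and the 2 of 12 have to be read against that background. The median ratio of the 12 probes was -0.032, beside 0.0016 for all tested probes, with 5 of the 12 above 0 and 7 below. Thioredoxin DY475069 also had p below 0.05 before adjustment, as did 20.4% of all tested probes, and its adjusted p was 0.0705. In a pool of tissue, fewer cells of a type and less RNA per cell cannot be told apart.

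Cationic peroxidase belongs to the secreted plant peroxidases, which use hydrogen peroxide to oxidise phenolic compounds, in the cell wall among other places. Its ratios in leaves were 1.24 and 1.09 in Tolerant1, 1.79, 0.92 and 0.64 in Tolerant2, 1.01 and 0.60 in Susceptible1, and 0.41, 0.015 and 0.084 in Susceptible2. All 10 leaf values lay above 0, and those of Susceptible2 were the lowest. The mean over the leaf groups was 0.81 (SE 0.17, 95% interval 0.45 to 1.17, limma with Benjamini-Hochberg adjustment, adjusted p = 0.00544). The adjusted p stayed between 0.00273 and 0.0341 over the alternatives in which the probe could be tested.

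The leaf groups that made up this mean were measured in different periods of image quantification. Tolerant1 and Susceptible1 had all their usable leaf values from the second period and Tolerant2 and Susceptible2 from the third, so that genotype and period cannot be told apart. Within the former pair of genotypes the peroxidase was at 0.98 (SE 0.26) and within the latter at 0.64 (SE 0.21). With the first period as a block against the later ones the mean was 0.74 (limma, adjusted p = 0.0186). This block did not separate the second period from the third, since no group held both. The probe had no leaf value from the first period. The block was thus estimated from flower hybridisations alone, and its result cannot show a period effect in leaves. Cold RNA labelled with Cy5 gave a mean of 0.86 over 6 leaf hybridisations and cold RNA labelled with Cy3 gave 0.66 over 4.

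In flowers the same probe was near 0. Its ratios were -0.0027, 1.93 and -0.15 in Tolerant1, 0.0050 and 0.025 in Tolerant2, 0.013, 0.16 and -0.23 in Susceptible1, and 0.044 and -0.034 in Susceptible2. Replicate 2 of Tolerant1 flowers stood far above the other 9 values. The mean over the flower groups was 0.15 (SE 0.17, adjusted p = 0.899). Leaves exceeded flowers by 0.67 (SE 0.24, 95% interval 0.16 to 1.17), with an adjusted p of 0.290 in limma. Without replicate 2 of Tolerant1 flowers the difference was 0.83, with an adjusted p of 0.00897, so this call rested on 1 hybridisation.

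The peroxidase probe was also among the brightest. The mean raw signal of its spots was at least 40000 units in both channels on 9 of its 20 hybridisations, a limit chosen after the values were seen, and its brightest single spot was at 58829. These were 7 of 10 in flowers and 2 of 10 in leaves, both of the latter in Susceptible2. On those 9 hybridisations the ratios lay between -0.23 and 0.084. On the other 8 leaf hybridisations they lay between 0.41 and 1.79, and on the other 3 flower hybridisations between -0.0027 and 1.93. The part of signal near the upper end of the range in the difference between tissues was not tested. Over the array, 44 of 738 probes were that bright in 50% or more of their hybridisations.

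**Figure D2:**
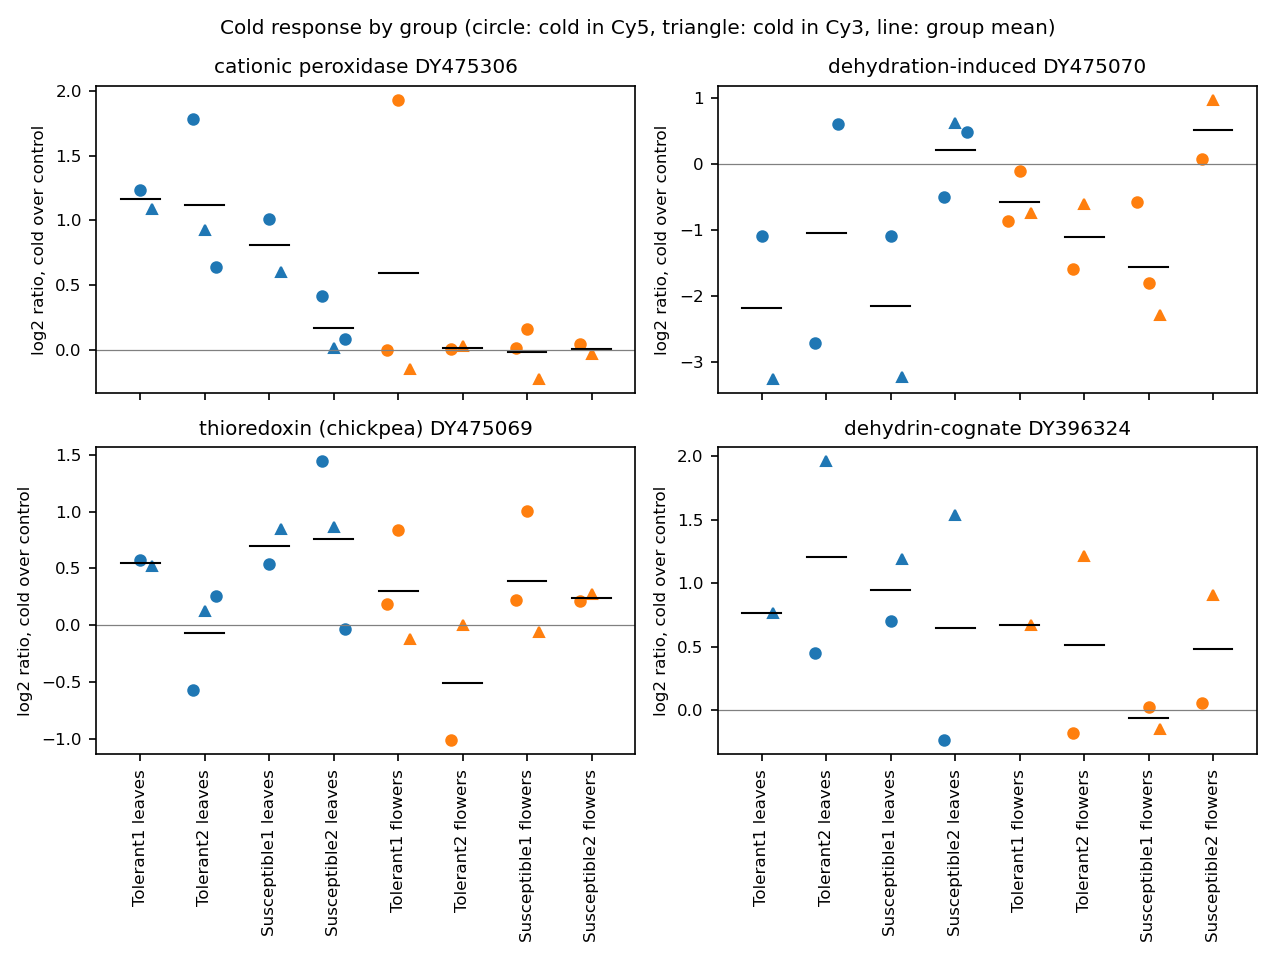
Log2 ratio of cold over control (vertical axes) by group for 4 probes, with leaves in blue and flowers in orange, circles for cold RNA in Cy5, triangles for cold RNA in Cy3 and a line at each group mean. Cationic peroxidase is above 0 in all leaf hybridisations, and dehydration-induced protein DY475070 ranges from -3.25 to 0.97.

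The other enzymes that act on reactive oxygen did not pass the test in leaves. Superoxide dismutase DY475155, measured on all 12 leaf hybridisations, ranged from -0.68 to 0.45 with a median of -0.049, and its mean was -0.11 (95% interval -0.36 to 0.14). Its values moved with the dye, with a leaf mean of -0.51 where the cold RNA carried Cy3 and 0.093 where it carried Cy5. Cytosolic ascorbate peroxidase DY396435 had a leaf mean of -0.049 (95% interval -0.63 to 0.53), with single values from -2.06 in replicate 1 of Susceptible2 to 0.84 in replicate 3 of the same group.

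Catalase DY396413, the peroxisomal enzyme that splits hydrogen peroxide, was the lowest tested probe of this role in leaves. Its ratios were -0.74 and -1.29 in Tolerant1, -0.90, 0.26 and -0.45 in Tolerant2, -0.072 and -0.43 in Susceptible1, and -1.33, 0.14 and 1.06 in Susceptible2. Of the 10 values 7 were below 0, and the groups of both classes overlapped. The mean was -0.42 (SE 0.22, 95% interval -0.89 to 0.05, adjusted p = 0.3003). In flowers it had 7 values between -0.65 and 0.99 and its mean was not tested, since Tolerant1 flowers had 1 value.

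The superoxide dismutase copper chaperone DY475397, which delivers copper to the copper-zinc form of the enzyme, had values on 12 of the 22 hybridisations and could not be tested in any mean. Its leaf ratios were -0.75 in Tolerant1, -0.0039 and -0.43 in Tolerant2, -0.45 in Susceptible1, and -0.91, 0.037 and -0.13 in Susceptible2. Thus 6 of 7 leaf values lay below 0, and the estimated mean was -0.44 (SE 0.18). With the requirement lowered to 1 replicate per group its adjusted p was 0.186. In flowers 4 of 5 values lay below 0, between -0.86 and 0.16. The authors' deposited table listed much lower values for this probe. They were -3.65 and -0.80 in leaves of Tolerant1 and Tolerant2, and -2.01 and -2.10 in leaves of Susceptible1 and Susceptible2. In flowers they were -0.32, -4.16 and -1.47 in Tolerant2, Susceptible1 and Susceptible2. The shift of each column of that table is unknown, and the column medians lay between -0.197 and -0.036. The paper reported this probe as repressed in flowers of both susceptible genotypes, and its quantitative RT-PCR there was also lower in cold. Here Susceptible1 flowers had 1 value, -0.29, and the 2 values of Susceptible2 flowers were both below 0 (mean -0.57). The cause of the gap was not tested.

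The glutathione enzymes gave few values. Glutathione peroxidase DY396331 had 0.66 in 1 hybridisation of Susceptible1 leaves and 1.81 in 1 of Susceptible1 flowers. Glutathione S-transferase GST 8 (DY396404) had 1.47 in 1 hybridisation of Susceptible1 leaves and 4 values between -0.47 and 0.26 in flowers. Glutathione S-transferase DY475250, an enzyme that couples glutathione to other compounds, had 6 leaf values from -0.79 to 0.32 and 1 flower value of -0.12. None of the 3 had an estimate of a mean over genotypes.

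In the thioredoxin system, chickpea thioredoxin DY475069 had the highest leaf mean. Its leaf ratios were 0.58 and 0.52 in Tolerant1, -0.57, 0.12 and 0.25 in Tolerant2, 0.54 and 0.85 in Susceptible1, and 1.44, 0.86 and -0.038 in Susceptible2. Of the 10 values 8 were above 0, with exceptions in Tolerant2 and Susceptible2. The mean was 0.48 (SE 0.16, 95% interval 0.15 to 0.82) and missed the threshold with an adjusted p of 0.0705. Without replicate 3 of Susceptible2 leaves the mean was 0.58 and the adjusted p 0.0237. In flowers the mean was 0.11 (95% interval -0.23 to 0.44).

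Ferredoxin-thioredoxin reductase DY475304 was the other probe tested in this role, with a leaf mean of 0.30 (SE 0.15, adjusted p = 0.262). Its ratios were 0.35 and 0.69 in Tolerant1 leaves, -0.021, -0.12 and -0.13 in Tolerant2 leaves, 0.90, 0.39 and 0.93 in Susceptible1 leaves, and 0.16, -0.016 and -0.098 in Susceptible2 leaves. The mean was 0.63 in Tolerant1 and Susceptible1 and -0.037 in Tolerant2 and Susceptible2, a difference of 0.67 (unadjusted 95% interval 0.041 to 1.29). This comparison of pairs was not planned, and no share of such differences over the array was computed. Each pair holds 1 tolerant and 1 susceptible genotype, and the pairs were quantified in different periods, so that genotype and period cannot be told apart. In flowers its mean was -0.13 (95% interval -0.45 to 0.20), with low values of -1.40 in replicate 2 of Tolerant1 and -1.08 in replicate 2 of Susceptible1. Grasspea thioredoxin DY396293 had 6 values, from -1.17 to 2.31, and thioredoxin H-type 1 (DY396330) had 4, from -0.38 to 0.73. Both were tested only within Susceptible1 leaves, where neither was called (adjusted p = 0.875 and 0.926).

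The 5 metallothionein probes gave leaf means close to 0. The highest was metallothionein-like protein 1 DY396373, at 0.31 (95% interval -0.07 to 0.70, adjusted p = 0.361), and the lowest was the probe DY396406 of the same description, at -0.16 (95% interval -0.58 to 0.25). In leaves DY396373 gave -0.18 and -0.12 in Tolerant1, -0.30, 1.19 and -0.34 in Tolerant2, 0.037 and 0.66 in Susceptible1, and 0.44 and 1.31 in Susceptible2. DY396406 gave -0.44 and 0.037 in Tolerant1, -0.29, 1.23 and -0.26 in Tolerant2, -1.40, -0.59 and 0.21 in Susceptible1, and -0.97, 0.27 and 0.43 in Susceptible2. DY396406 had values on both sides of 0 in each of the 4 leaf groups and DY396373 only in Tolerant2. In both probes replicate 2 of Tolerant2 was far above the other replicates of that group.

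The metallothionein-like probes from grasspea moved together from hybridisation to hybridisation. Over the 21 hybridisations that measured both, DY396322 and DY396406 had a Pearson correlation of 0.92 (Spearman 0.95), and within groups it was 0.94. DY396373 correlated at 0.85 with DY396322 and at 0.85 with DY396406 over 18 hybridisations, and DY396295, described only as metallothionein-like, at 0.49, 0.67 and 0.69 with the other three. Chickpea metallothionein MT-2 (DY475049) correlated with these 4 probes at 0.018 to 0.42. The median over all pairs of 475 probes with at least 15 values was -0.0076. These points share hybridisation, dye and depth, and in leaves DY396322 averaged 0.43 where the cold RNA carried Cy3 and -0.42 where it carried Cy5, while DY396406 averaged 0.44 and -0.50.

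**Figure D3:**
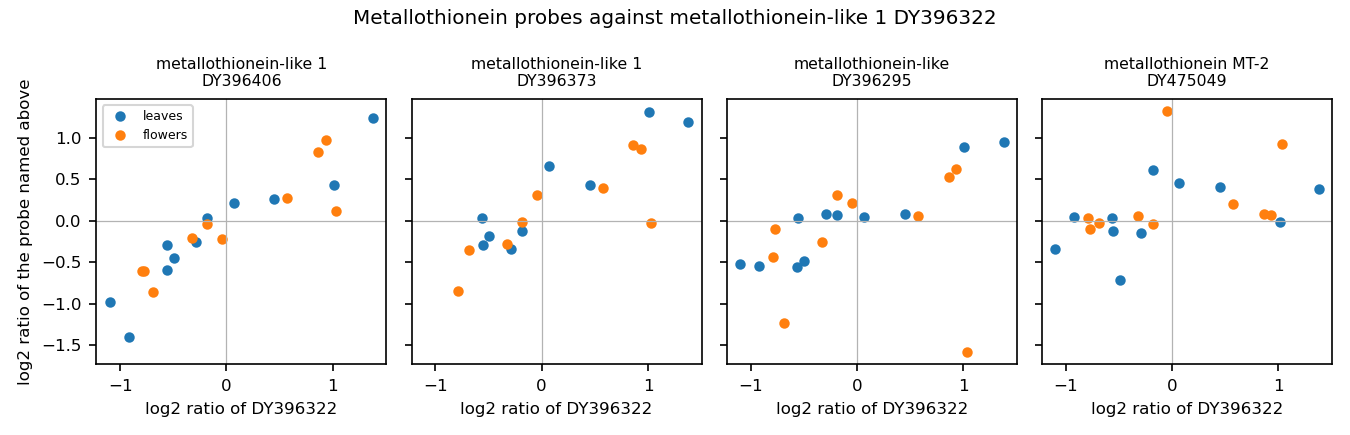
Log2 ratio of 4 metallothionein probes (vertical axis) against that of metallothionein-like protein 1 DY396322 (horizontal axis), with 1 point per hybridisation, leaves in blue and flowers in orange. The points of DY396406 follow a line (Pearson 0.92 over 21 hybridisations), whereas those of chickpea MT-2 DY475049 scatter (0.42).

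Dehydration-induced protein DY475070 held the largest decrease of the 22 probes. Its leaf ratios were -1.09 and -3.25 in Tolerant1, -2.71 and 0.61 in Tolerant2, -1.08 and -3.22 in Susceptible1, and -0.50, 0.63 and 0.49 in Susceptible2. All values of Tolerant1 and Susceptible1 were below -1, whereas Tolerant2 and Susceptible2 had values on both sides of 0. The mean was -1.29 (SE 0.33, 95% interval -1.997 to -0.58, adjusted p = 0.0190). The authors' deposited table listed -1.90 in Tolerant1 leaves, 0.70 in Tolerant2 leaves and 0.49 in Susceptible2 leaves, and no value in Susceptible1 leaves. In Tolerant2 leaves its sign was thus opposite to that of the group mean here (-1.05). The shift of each column of that table is unknown, and the cause of this gap was not tested.

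The call of DY475070 was lost under a random block of hybridisations with the same replicate number (limma, adjusted p = 0.0657). With the first quantification period as a block against the later ones the mean was -1.20 (limma, adjusted p = 0.0528). This block did not separate the second period from the third, and the probe had no leaf value from the first. The block was thus estimated from flower hybridisations alone, and its result cannot show a period effect in leaves. Within Tolerant1 and Susceptible1 the leaf mean was -2.16 (SE 0.49) and within Tolerant2 and Susceptible2 it was -0.42 (SE 0.45). The difference was -1.74 (unadjusted 95% interval -3.15 to -0.33), between sets of genotypes that were also quantified in different periods. The 3 leaf hybridisations with cold RNA in Cy3 averaged -1.95 and the 6 with cold RNA in Cy5 averaged -0.71. With a dye term in the model the mean was -1.36 (adjusted p = 0.0204). The estimate moved to -0.88 without replicate 1 of Tolerant2 leaves and to -1.71 without replicate 3, and in both cases the group kept 1 value, so the probe was not tested.

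In flowers DY475070 gave -0.87, -0.11 and -0.73 in Tolerant1, -1.59 and -0.61 in Tolerant2, -0.57, -1.79 and -2.29 in Susceptible1, and 0.073 and 0.97 in Susceptible2. The 8 values below 0 came from 3 genotypes, and both values above 0 from Susceptible2. The mean was -0.67 (SE 0.32, 95% interval -1.35 to 0.00026), with an adjusted p of 0.618 in limma. Leaves and flowers differed by -0.62 (SE 0.46, adjusted p = 0.949), which leaves an interval of -1.59 to 0.36.

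A second probe with the same description, DY475192, could be tested within 5 groups, where it was not called, but in no mean over genotypes. Its leaf values were 0.067 and -0.68 in Tolerant1, 0.34 and -1.25 in Tolerant2, -0.018 and -1.34 in Susceptible1, and -0.68 in Susceptible2. Of these 7, 5 lay below 0, and the estimated leaf mean was -0.53 (SE 0.23), with an adjusted p of 0.234 where 1 replicate per group was allowed. In flowers it was at 0.0069 (SE 0.25). The grasspea dehydration stress-induced protein DY396321 had 1 value in leaves (1.20, Susceptible1) and 1 in flowers (0.034, Tolerant2). It was at 2 times background or more in 9 cold channels and 2 control channels of the 22 hybridisations. Cold RNA was in Cy5 on 14 of the 22, and on each of these the cold channel had the higher median signal over background. The part of the dye in this count was not tested.

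The means of the dehydrins over the leaf groups were not tested. Dehydrin-cognate DY396324 from grasspea had leaf ratios of 0.77 in Tolerant1, 0.45 and 1.96 in Tolerant2, 0.70 and 1.19 in Susceptible1, and -0.24 and 1.54 in Susceptible2. Of the 7 values 6 were above 0, and the estimated mean of 0.89 (SE 0.28, 95% interval 0.27 to 1.51) was the highest among the probes that had one in leaves. It was left out of the test because Tolerant1 leaves had 1 value, and with 1 replicate per group allowed its adjusted p was 0.0819. Its values also followed the dye, with a leaf mean of 1.37 over 4 hybridisations with cold RNA in Cy3 and of 0.30 over 3 with cold RNA in Cy5.

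The cold-induced dehydrin DY475092 had leaf values of both signs, by genotype. In Tolerant2 leaves it was at 1.05, 1.04 and 0.93 (mean 1.01, SD 0.065, n = 3), where the 3 values lay close together, and the adjusted p within that group was 0.0823. In Susceptible2 leaves it was at 0.58, 0.35 and 0.25, whereas the only values of Tolerant1 and Susceptible1 leaves were -0.53 and -0.50. The former pair of genotypes was at 0.70 (SE 0.19) and the latter at -0.52 (SE 0.33), and they were quantified in different periods. The leaf mean over genotypes was 0.093 (SE 0.19) and was not tested. In flowers the mean was 0.29 (95% interval -0.07 to 0.66, adjusted p = 0.735).

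**Figure D4:**
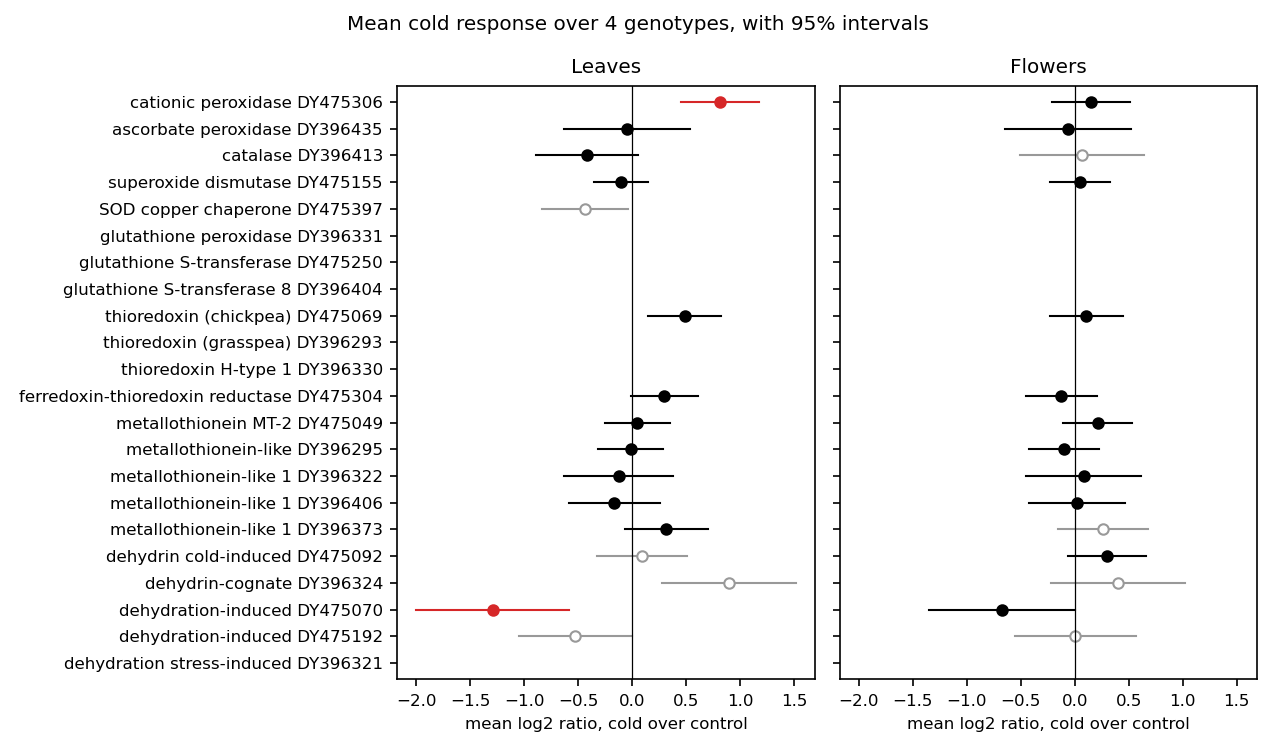
Mean log2 ratio of cold over control over the 4 genotypes (points) with 95% intervals (bars) for each of the 22 probes, in leaves and in flowers. Red marks an adjusted p below 0.05, black the other tested probes and open grey circles probes with fewer than 2 replicates in some group; a row without a point had no estimate. Cationic peroxidase (0.81) and dehydration-induced protein DY475070 (-1.29) are the only called probes, both in leaves.

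No single group gave a call among these probes. Of the 121 tests of a probe within a group, 0 reached an adjusted p below 0.05 with at least a 2-fold change (limma), and 12 had p below 0.05 before adjustment. Over the array 0.372% of the 4033 such tests were called and 8.03% had an unadjusted p below 0.05. The nearest were cationic peroxidase in Tolerant2 leaves (mean 1.12 ± 0.60, SD, n = 3, adjusted p = 0.0789) and the cold-induced dehydrin in the same leaves.

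In flowers 0 of the 11 tested probes were called (limma) beside 1.12% of the 446 tested probes over the array. Of the 11, 0 had an unadjusted p below 0.05, beside 7.85% of all tested probes. The median of the 11 was 0.048, and that of all tested probes -0.0025. Between leaves and flowers 0 of 10 probes were called, beside 1.72% of 406 over the array. Of the 10, 1 had an unadjusted p below 0.05 (the peroxidase), beside 7.88% of all tested probes.

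The experiment aimed to compare tolerant with susceptible genotypes. For this the paper listed transcripts changed at least 2-fold against control in both genotypes of a class and only in that class. Its list for cold included the copper chaperone DY475397, which had too few values for the test here. That test was another, of a difference in mean response between the classes. It gave 0 calls among these probes in either tissue. Over the array it gave 0 as well (0% of 445 probes in leaves and 0% of 446 in flowers, limma). Of the tested probes among the 22, 0 had an unadjusted p below 0.05 in either tissue, beside 1.8% of all tested probes in leaves and 0.224% in flowers. In leaves the differences ran from -0.64 for DY475070 to 0.65 for cationic peroxidase (SE 0.34, 95% interval -0.07 to 1.37, adjusted p = 0.994). In flowers they ran from -0.42 for thioredoxin DY475069 to 0.47 for metallothionein-like protein DY396295 (95% interval -0.17 to 1.11). The widest intervals reached 1.41 to either side of the estimate in leaves and 1.35 in flowers, so that a 2-fold difference lay within several of them.

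The control channel showed where these transcripts stood before cold. Of the 10 tested probes, 3 differed between unstressed leaves and flowers by at least 2-fold at an adjusted p below 0.05, beside 19.5% of the 406 tested probes over the array (10.1% higher in leaves and 9.36% lower). Of the 10, 6 had an unadjusted p below 0.05, beside 47.8% of all tested probes. Ferredoxin-thioredoxin reductase and metallothionein-like protein 1 DY396406 were higher in leaves, and cationic peroxidase was higher in flowers. The median difference of the 10 was 0.048, beside -0.12 for all tested probes. None of the 3 was called when the control channels were scaled by their medians alone (adjusted p = 0.0599, 0.0863 and 0.190 for the peroxidase, DY396406 and the reductase). With flagged spots kept, DY396406 (0.76, adjusted p = 0.287) and the reductase (0.95, adjusted p = 0.0930) also lost their calls. DY396406 fell just under 2-fold without background correction (0.98), and the reductase did so with a replicate block (0.91) and without the first quantification period (0.98). All 3 kept their sign in the alternatives run.

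Cationic peroxidase had a log2 control signal of 13.28 and 12.96 in Tolerant1 leaves, 12.82, 14.24 and 14.20 in Tolerant2 leaves, 13.85 and 13.59 in Susceptible1 leaves, and 14.60, 15.34 and 14.98 in Susceptible2 leaves. In flowers the 10 values lay between 14.22 and 15.54 with a median of 15.22. Flowers overlapped with the leaves of Susceptible2, the genotype in whose leaves the cold response was smallest, and of Tolerant2. The leaf mean was 1.24 lower (difference -1.24, SE 0.22, adjusted p = 0.000702). The part of signal near the upper end of the range in this difference was not tested.

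Ferredoxin-thioredoxin reductase had leaf values between 12.66 and 15.10 (median 13.78) and flower values between 11.82 and 15.20 (median 12.53), a difference of 1.11 (SE 0.36, adjusted p = 0.0228). The highest flower value, in replicate 2 of Tolerant1, exceeded every leaf value. Without replicate 1 of Tolerant2 flowers its adjusted p was 0.0777, and without replicate 1 of Susceptible2 flowers 0.0623. DY396406 had leaf values between 11.58 and 14.11 (median 13.50) and flower values between 11.46 and 13.23 (median 12.29), a difference of 1.08 (SE 0.30, adjusted p = 0.0102). The probe DY396322 differed by 0.94 (adjusted p = 0.0318) and stayed under the size limit, whereas chickpea MT-2 was at -0.64 (adjusted p = 0.0501). Both channels of MT-2 were at 40000 units or more on 7 of 10 flower and 1 of 11 leaf hybridisations, and the part of this in its difference and in its low correlations was not tested.

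Catalase could not be tested here because of the single value in Tolerant1 flowers, but its estimate was the largest among the probes that had one. Its control signal lay between 10.88 and 13.29 in leaves (10 values, median 12.22) and between 9.68 and 11.09 in flowers (7 values, median 10.36), so that only 1 leaf value fell below the highest flower value. The estimated difference was 1.89 (SE 0.34), and with 1 replicate per group allowed the adjusted p was 0.00127. Under the same rule the cold-induced dehydrin was estimated higher in leaves by 1.12. Its control signal was 12.83 in Tolerant1 leaves and 13.64 in Susceptible1 leaves, with 1 hybridisation each. It averaged 10.96 in Tolerant2 leaves and 10.85 in Susceptible2 leaves, beside 10.83 to 11.23 in the flower groups. The estimate thus rested on those single hybridisations.

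**Figure D5:**
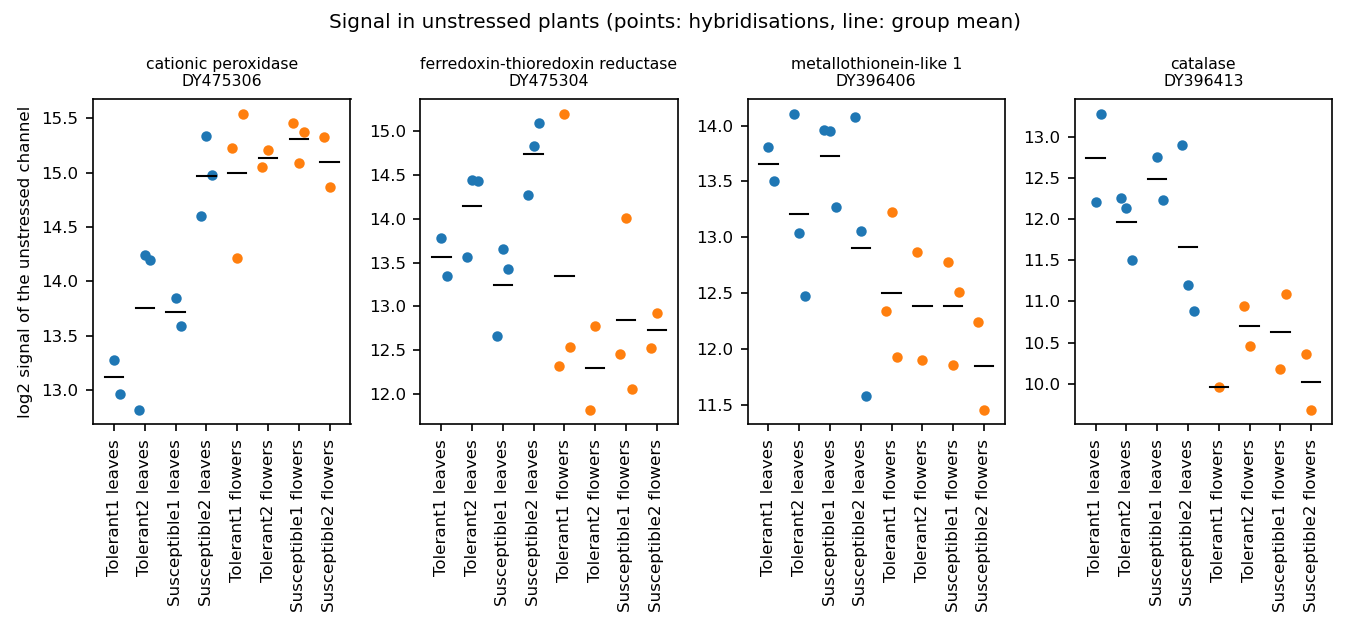
Log2 signal of the unstressed channel after normalization (vertical axes) by group for 4 probes, with 1 point per hybridisation, leaves in blue, flowers in orange and a line at each group mean. Cationic peroxidase is higher in flowers (leaves minus flowers -1.24), and ferredoxin-thioredoxin reductase (1.11), metallothionein-like protein 1 DY396406 (1.08) and catalase (1.89, not tested) are higher in leaves.

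Of 11 further probes listed around redox metabolism, 4 were tested in leaves and 1 fell, beside 9.66% called over the array. The 1 was ferredoxin DY475487, the electron carrier ahead of the reductase, at -0.37 (limma, adjusted p = 0.0190). Glycolate oxidase DY396348, which makes hydrogen peroxide in photorespiration, was the lowest of the 4 at -0.41 (adjusted p = 0.0800). Mitochondrial glyoxylase DY475321 was the highest at 0.16. Before cold, 1 of 3 tested probes was called, beside 19.5% over the array: ferredoxin-NADP reductase DY475083, which was higher in leaves by 1.16. Of 10 further probes for water and osmotic stress, 4 were tested in leaves and 1 rose, again beside 9.66%: S-adenosylmethionine decarboxylase DY475170, an enzyme of polyamine synthesis, at 0.85 (adjusted p = 0.00626). Of 5 tested in flowers it was the 1 that rose, at 1.17 (adjusted p = 0.0131), beside 1.12% called over the array. The lowest of this list in leaves was the aluminium-induced protein DY475138 at -0.16.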

How the data were processed

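Leaves and flowers of 4 chickpea genotypes were measured as cold against control on 2-colour arrays with 6 spots per feature. The deposited intensity values are raw spot and local background means from the program ImaGene, as named in the headers. The authors' deposited log2 ratio table, in which the shift of each column is unknown, served only as an alternative. The dye of each file was taken from its name, which the header matched for 22 of 24 hybridisations and did not give for 2. Replicate 3 of Tolerant2 flowers and of Susceptible2 flowers held the same values as replicate 1 and was counted once. Cold RNA was in Cy5 on 14 hybridisations and in Cy3 on 8.

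Background was corrected by normexp with an offset of 50, followed by loess within each array (span 0.3, 4 iterations). Control spots and spots flagged by the image software were left out, ratios were turned to cold over control and spots were averaged. Of 756 features, 738 reached 2 times background in 1 channel of 1 hybridisation, and 34.17% of their values were missing. The number of hybridisations limits the precision. All groups entered 1 model in limma 3.58.1 (R 4.3.3), with two-sided tests adjusted by Benjamini-Hochberg over all tested features, at an adjusted p below 0.05 and, within groups and between unstressed tissues, at least 2-fold. Missing values were not imputed. The procedure was tested on simulated data.

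The keyword rule used no measured values, but the rule and the gene lists were set with earlier results of these data known. Described in full were the members called in a comparison and the highest and lowest leaf response in each role, and other members were added after their values were seen. Alternatives covered the background, scaling, spot flags, filter, dye, period, duplicate files, replicate block and leaving out each hybridisation. The brightness limit, the requirement of 1 replicate per group and the omission of the first period were chosen after seeing the data. The comparison between the pairs of genotypes was not among the planned tests, and its intervals are unadjusted.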

Additional observations from a re-analysis of the deposited data

How the results depend on the processing

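For both probes called in leaves, the block by first quantification period was estimated from flowers alone, since neither had a leaf value from that period. The count of probes called in leaves (2) was 1 with this block and 1 with a random block of same-numbered hybridisations. It was 3 with each deposited file counted, and 0 to 3 when single hybridisations were left out. It was 0 without replicate 2 or 3 of Tolerant1 leaves or of Susceptible1 leaves, where few of the 22 probes kept 2 replicates, and 1 without replicate 1 or 3 of Tolerant2 leaves. Within groups the count (0) was 1 with each deposited file counted, 26 at 2-fold in the authors' deposited table, which has no test, and 0 to 2 with single hybridisations left out (2 without replicate 2 of Tolerant1 flowers). Leaves against flowers (0) gave 1 in that table and 0 to 1 with hybridisations left out. Between unstressed tissues the count (3) was 0 with median scaling, 5 with 1 replicate per group allowed, and 0 to 5 with hybridisations left out, with 0 without replicate 2 or 3 of Tolerant1 leaves. The counts in flowers and between tolerant and susceptible genotypes stayed at 0 in all alternatives run. Median scaling moved the median of all features between unstressed tissues from -0.12 to -0.23 and the share of calls that were higher from 51.9% to 42.6%, and keeping all spots moved that share to 39.6%.

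Over all features the counts in leaves (43) ranged from 27 to 62 over the alternatives and from 4 to 44 with hybridisations left out. Flowers gave 0 to 12 (5), leaves against flowers 0 to 23 (7) and groups 0 to 541 (15), the highest of the latter from the deposited table. Same-numbered hybridisations of tolerant and susceptible genotypes correlated above 0.1 in 10 of 11 pairs (mean 0.43) and those of leaves and flowers in 7 of 10 (mean 0.22). Most pairs thus moved together, but not every pair did and the labels name no shared batch, so the numbers were not taken as a pairing and the blocked fits stand as alternatives. With the replicate number as a block, leaves against flowers had 0 calls among the 22 probes and unstressed tissues 4, and under the random replicate block dehydration-induced protein DY475070 had an adjusted p of 0.0657.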
